A study of Mus musculus with 4 samples.

Results

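Deep intragenic regions of long genes are the stretches of accessible chromatin that lie inside a protein-coding gene body of at least 200 kb and over 20 kb from every end of a protein-coding gene. Peaks of the 4 deposited lists on chromosomes 1 to 19 and X with an overlap of 1 bp or more were joined, which gave 90202 regions, and 9210 of them (10.2%) met this rule, which uses position and no measured value. The lists come from bulk ATAC-seq, an assay in which a transposase inserts sequencing adapters into open DNA. The cells were iMGT-Myh6-eGFP-MEFs, mouse embryonic fibroblasts that express Mef2c, Gata4 and Tbx5 (MGT), transcription factors of the heart, once doxycycline is added (1 μg/mL here); eGFP and the cardiac myosin gene Myh6 in the name point to a reporter. All cells carried the inducible factors, were grown on gelatin, were transfected with an siRNA the day before doxycycline and were taken at day 1 of induction. The groups differ in the siRNA: siControl (2 libraries) or siChst7 (2 libraries), against Chst7, a sulfotransferase of chondroitin sulfate synthesis. Nothing in the labels tells whether the numbered replicates grew as separate cultures, so p-values measure the spread between these libraries only. No library without doxycycline and no measure of Chst7 itself was analysed here, and the cells were frozen and thawed before tagmentation.

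Genes of this length owe almost all of it to introns. Introns hold many enhancers, which bind transcription factors and act on the promoter of the same gene or of neighbours, and they also hold alternative promoters, from which shorter forms of the host gene start, and the promoters of antisense and other non-coding RNAs. Many of the longest mammalian genes encode adhesion and synaptic proteins used in neurons, whereas long genes of the actin cytoskeleton, focal adhesions and the extracellular matrix are widely used in fibroblasts. Distances here were taken to both ends of a gene as RefSeq draws it, and exons and introns were not told apart.

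Annotated starts inside long genes show what some of these regions cover, and their sequences are given first. RefSeq's table of start sites for GRCm38.p6, the assembly of mm10, places 365 protein-coding starts in the interiors studied, all of them alternative starts of the long gene itself, and 691 starts of long non-coding RNAs (lncRNAs). A region overlapped the 300 bp around the start (250 bp before it and 50 bp from it on) for 92 of the 365 protein-coding starts (25.2%, exact 95% binomial interval 20.8 to 30.0) and for 52 of the 691 lncRNA starts (7.53%, 5.67 to 9.75). For scale, 2.10% of the positions of such a window in these interiors would touch a region. The intervals here and later cover counting error only. The following stretches are the 200 bases before 6 covered starts, 5′ to 3′ along the transcript, with matches to the AP-1 motif TGANTCA and the TEAD motif GGAATG, searched on both strands, in capitals. AP-1 and TEAD factors are widely bound at fibroblast enhancers. Creb5, Dclk1 and Palld are shown because they hold an AP-1 match, Dst because it is the gene with the most regions, and Kcnq1ot1 and Dnm3os because they are well-known non-coding RNAs whose starts lie deep in another gene; the 6 were chosen after their values were seen.
Creb5: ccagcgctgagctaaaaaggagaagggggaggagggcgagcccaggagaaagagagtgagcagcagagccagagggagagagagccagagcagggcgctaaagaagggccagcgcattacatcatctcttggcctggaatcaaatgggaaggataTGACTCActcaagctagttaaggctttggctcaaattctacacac
Dclk1: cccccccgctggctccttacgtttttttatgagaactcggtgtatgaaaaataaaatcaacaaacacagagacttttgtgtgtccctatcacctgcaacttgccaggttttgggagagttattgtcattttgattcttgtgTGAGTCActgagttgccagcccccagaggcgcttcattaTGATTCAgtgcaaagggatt
Palld: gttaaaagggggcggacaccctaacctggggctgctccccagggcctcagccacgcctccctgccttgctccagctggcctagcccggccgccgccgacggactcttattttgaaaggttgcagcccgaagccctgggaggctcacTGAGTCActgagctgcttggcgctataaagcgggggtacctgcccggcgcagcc
Dst: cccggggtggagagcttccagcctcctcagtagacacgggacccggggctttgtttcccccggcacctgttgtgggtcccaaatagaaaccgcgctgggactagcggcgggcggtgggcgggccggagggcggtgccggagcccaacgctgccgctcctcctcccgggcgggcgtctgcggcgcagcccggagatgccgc
Kcnq1ot1: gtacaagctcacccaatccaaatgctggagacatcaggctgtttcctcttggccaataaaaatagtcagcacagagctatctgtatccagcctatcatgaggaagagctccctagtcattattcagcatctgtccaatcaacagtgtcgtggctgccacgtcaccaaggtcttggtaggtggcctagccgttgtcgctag
Dnm3os: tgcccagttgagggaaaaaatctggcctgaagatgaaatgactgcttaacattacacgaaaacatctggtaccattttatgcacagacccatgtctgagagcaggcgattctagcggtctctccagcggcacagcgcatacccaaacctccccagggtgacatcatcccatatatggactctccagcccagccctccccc

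In mm10 these stretches are chr6:53573174-53573373, plus strand (Creb5), chr3:55461528-55461727, plus strand (Dclk1), chr8:61591140-61591339, minus strand (Palld), chr1:34011395-34011594, plus strand (Dst), chr7:143296548-143296747, minus strand (Kcnq1ot1) and chr1:162217423-162217622, plus strand (Dnm3os). The Creb5 stretch holds 1 AP-1 match, the Palld stretch 1 and the Dclk1 stretch 2, and none of the 6 holds a TEAD match. Of the 200 bases, the Dst stretch has 22 CpG dinucleotides and a GC content of 73.0%, whereas the Dclk1 stretch has 4 CpG dinucleotides and a GC content of 44.5%.

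All 6 starts lay under a region called in every library. The fold enrichment that the authors' peak caller gives each peak, the signal at the summit over its local background in that library, stood at 23.6 and 23.3 (siControl) and 22.3 and 20.2 (siChst7) over the inner start of Creb5, a transcription factor of the CREB family, 127 kb from the nearest gene end. The inner start of Dclk1, a microtubule-binding kinase, had folds of 20.6 and 19.6 (siControl) and 17.4 and 17.0 (siChst7). The windows of these 2 starts held few CpG dinucleotides, 4 and 6, and their folds were among the highest over any inner start. At Palld, which encodes the actin-binding protein palladin, the values were 12, 11.4, 12.1 and 12.1 in the same order, and at Dst, a giant linker of the cytoskeleton, 11.4, 12.2, 11.2 and 11.1. Kcnq1ot1, an imprinted antisense RNA that starts inside the potassium channel gene Kcnq1, had a region of 1512 bp with folds of 14.2, 15.2, 14.2 and 13.1. Folds belong to their own list and are not compared between libraries here.

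Regions over an annotated start were called more evenly than the rest. Of the 132 regions that covered any of these starts, 108 (81.8%) were called in all 4 libraries, against 5171 of the other 9078 (57.0%). Their median width was 782 bp against 488 bp, and the median of their highest fold was 9.82 against 7.60. A wide region is more likely to touch a start window, and wide regions were also called in more libraries. These contrasts were not matched for width, so the part of width was not tested. The covered windows differed from the uncovered ones in sequence: the median GC content of covered protein-coding starts was 56.5% with 12 CpG dinucleotides, against 48.7% and 6 for uncovered ones. An AP-1 match stood in 24 of the 144 covered windows (16.7%), in 76 of the 912 uncovered ones (8.33%) and in 7.85% of all 32618 start windows of the table. The motif AGATAA, read by GATA factors, stood in 6 of the 144 covered windows (4.17%), against 15.2% of uncovered and 11.2% of all windows. The TEAD motif was about as frequent in covered (17.4%) as in uncovered windows (17.8%), the T-box motif AGGTGT stood in 11.1% against 16.3%, and the MEF2 motif in 4.86% against 4.5%. CArG boxes, read by SRF, stood in 4.86% of covered and 2.63% of uncovered windows. These are matches of letters in windows that also differ in base composition, and the part of composition was not tested.

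A minority of the microRNA hairpins inside long genes lay under a region. Of 70 hairpins in these interiors 6 were overlapped by a region, each called in all 4 libraries, and 11 lay within 1 kb of one. For scale, regions held 1.36% of the bases of these interiors, and 2.10% of the positions of a 300 bp window would touch one. The overlap with hairpins was not tested. One of the 6 was Mir199a-2 on chromosome 1 (162217814 to 162217923), read from the opposite strand to its host Dnm3, a dynamin. It shares the region chr1:162217220-162218087 with the start of Dnm3os, the transcript that carries miR-199a and miR-214. This region had folds of 8.75 and 8.44 (siControl) and 8.13 and 9.64 (siChst7). A further region, called in all 4 libraries with folds of 13.1, 10.0, 11.9 and 11.8, lay 2.04 kb from the hairpin of Mir214. The mature sequences of this locus and of Mir721, whose hairpin lies inside Cux1 under a region with folds of 13.3 to 14.3, are given with the seed (bases 2 to 8) in capitals. No seed is shared among these 5.
miR-199a-5p: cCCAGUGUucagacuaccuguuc
miR-199a-3p: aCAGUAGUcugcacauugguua
miR-214-5p: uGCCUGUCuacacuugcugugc
miR-214-3p: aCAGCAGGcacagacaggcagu
miR-721: cAGUGCAAuuaaaagggggaa

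The other hairpins that a region overlapped were Mir3092 in Fndc3b (folds 11.2 to 12.7), Mir3075 in Zmiz1 (7.81 to 8.48), Mir7687 in Gse1 (4.52 to 5.14) and a hairpin of Nbea, Gm51273 (6.52 to 8.53). Several lncRNA starts of named loci were covered as well. Gm32703 inside Pde4d, Gm19417 inside Nfia and Gm13269 inside Cacnb2 each had a region called in all 4 libraries over the start, with lowest folds of 8.30, 9.26 and 8.64. The highest lowest fold over a lncRNA start was 17.5, at Gm30284 inside the protein kinase gene Prkce.

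The files hold no read totals, so the depth is unknown. The lists held 73806 and 75593 peaks on these chromosomes in siControl and 74304 and 66079 in siChst7, so that of siChst7 replicate 2 is the shortest. At gene ends, within 1 kb, 6 of 8 fibroblast markers fixed for this check (Col1a1, Col1a2, Pdgfrb, Postn, Thy1, Twist1) had a peak in all 4 libraries and Col3a1 and Prrx1 had none. None of 3 endothelial markers and neither of the 2 immune markers had a peak in all 4, whereas all 3 neural markers (Map2, Rbfox3, Tubb3) and 3 of 5 cardiomyocyte markers (Myh6, Nppa, Tnnt2) did.

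Interiors of long genes held more peaks per Mb than intergenic sequence and fewer than interiors of shorter genes. They span 373 Mb, 21.2% of all sequence over 20 kb from a gene end, and held 19 and 20.0 peaks per Mb in siControl and 20.0 and 17.2 in siChst7. Intergenic sequence also over 20 kb from any gene end held 12.3, 12.9, 12.6 and 11 peaks per Mb in the same libraries. Interiors of shorter genes held 39.5, 40.8, 40.7 and 35.5. This limit is a minimum, and the classes were not matched for distance beyond it. In long genes the density was 33.0 regions per Mb at 20 to 50 kb from an end and 10.4 beyond 200 kb. The part of distance in the contrast between classes was not tested. In every library the order of the classes was the same. The density in long genes was 1.55 to 1.58 times the intergenic one (mean log2 ratio 0.64), and that in shorter genes exceeded the long-gene density by a mean log2 ratio of 1.04. Both comparisons gave a two-sided exact sign-flip permutation p of 0.125 over the 4 libraries, the smallest that 4 libraries allow. The first depends on the length set for a long gene: in genes of at least 500 kb the mean log2 ratio to intergenic sequence was -0.30, with lower density than intergenic sequence in place of higher.

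**Figure D1:**
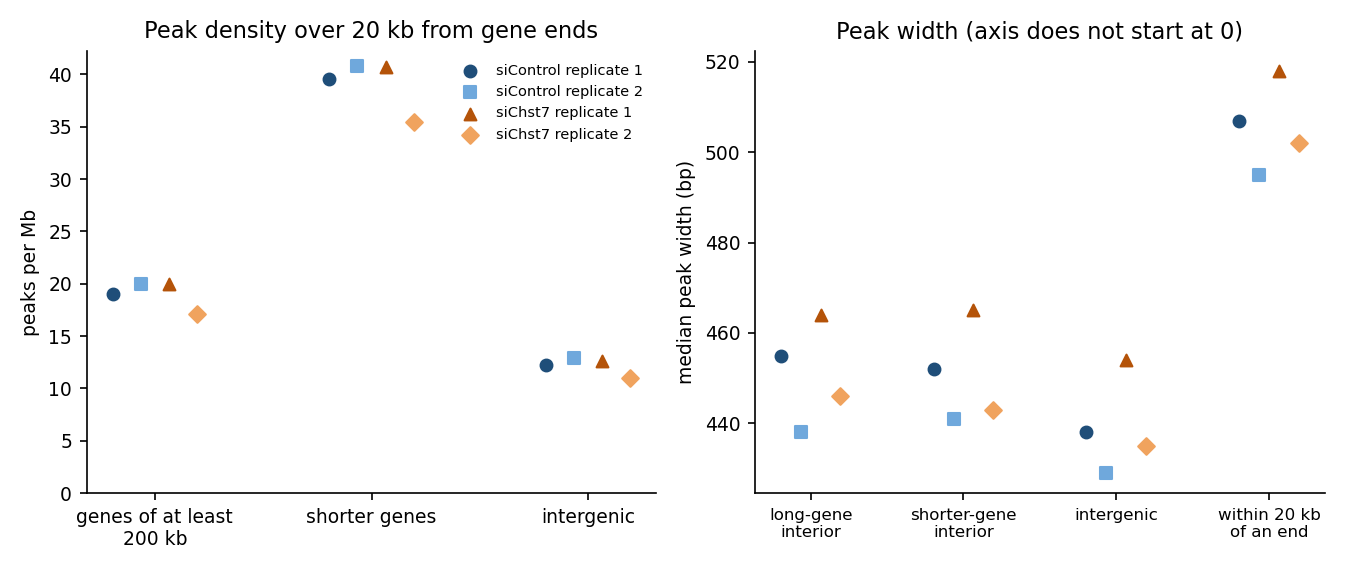
Left, peaks per Mb of sequence over 20 kb from any protein-coding gene end, per library, inside genes of at least 200 kb, inside shorter genes and outside all protein-coding genes; right, the median peak width in bp in these classes and within 20 kb of an end. The long-gene values (17.2 to 20.0 peaks per Mb) lie between the other 2 classes in every library, and peaks near gene ends are the widest.

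Deep intragenic peaks were narrower and ranked lower than the other peaks of the same list. The median widths were 455 and 438 bp (siControl) and 464 and 446 bp (siChst7), against 484, 472, 494 and 477 bp for all other peaks, a mean difference of -31.0 bp (exact sign-flip permutation p = 0.125, the smallest possible). The median −log10 q, the caller's measure of confidence, was 20.3, 18.5, 19.4 and 17.9, against 26.1, 24.8, 25.6 and 23.3 for the others. As a rank within the list, their median stood 8.40 percentiles lower (p = 0.125 by the same exact permutation test), in 4 of 4 libraries. The fold differed little, with medians of 7.95, 7.78, 7.60 and 7.99 against 7.98, 7.95, 7.74 and 8.11 (mean difference -0.12, exact permutation p = 0.125; -0.03 among peaks with a −log10 q of at least 10). Against interiors of shorter genes the fold differed by 0.35 and against intergenic peaks by -0.14 (exact sign-flip permutation p = 0.125 for both). For width and rank, the contrast is with peaks near gene ends, which make up 58.5% to 59.6% of each list. Those peaks had a median width of 495 to 518 bp. Against intergenic peaks the width differed by only 11.8 bp and the rank by -0.44 percentiles (exact permutation p = 0.125 and 0.25), and against interiors of shorter genes by 0.50 bp and -1.17 percentiles (exact permutation p = 1.00 and 0.125).

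Most of the regions were found in every library. Of the 9210, 5279 (57.3%, exact 95% binomial interval 56.3 to 58.3) were called in all 4 libraries, against 62.0% of all merged regions, 65.2% of regions within 20 kb of a gene end, 57.3% of intergenic regions and 58.4% of those in shorter genes. Called in 3, 2 and 1 libraries were 1020, 1061 and 1850. Size went with the number of calls: the median width was 243 bp for regions called once, 336 bp for 2 calls, 420 bp for 3 and 661 bp for 4. The median of the highest fold was 4.39, 5.49, 6.42 and 10.5 in the same order. A region spans all of its joined peaks, and the highest fold is the largest over the libraries that called it. Both can therefore grow with the number of calls by construction, and this part was not tested. Libraries shared 77.6% to 91.4% of their called deep intragenic regions with any other library, against 80.3% to 92.5% over all regions, and the low shares are those of the longer lists against the short list of siChst7 replicate 2.

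The regions were unevenly spread over genes. Of 989 long genes 849 held at least 1 region and 140 held none, with a median of 7 regions (quartiles 2 and 14). Per Mb of eligible interior, the sequence of a gene that could hold such a region, the 977 genes with at least 100 kb of it had a median of 23.0 regions (quartiles 5.94 and 49.7), and 183 genes (18.5%) held 50% of all regions. Classes of longer genes were sparser. Genes of 200 to 300 kb had 42.1 regions per Mb, those of 300 to 500 kb 29.8, those of 500 to 1000 kb 18.8 and the 59 genes over 1000 kb 5.68. Across the 977 genes Spearman's rank correlation between density and length was -0.34 and that between the number of regions and length was -0.01, given as descriptions, since genes are not independent and share the same 4 libraries.

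Dst carried the most regions of any long gene, 56, with 49 and 47 peaks in siControl and 49 and 41 in siChst7. On chromosome 1 (33907888 to 34308662), 37 of its regions were called in all 4 libraries, and 14 fell within 48.4 kb, the most in any 50 kb of a long gene. Kalrn, a guanine nucleotide exchange factor of chromosome 16, followed with 47 regions (37, 38, 37 and 39 peaks), and Apbb2, an adaptor of the amyloid precursor protein on chromosome 5, with 45 (35, 33, 35 and 31 peaks). Apbb2 had the highest density of all, 161 regions per Mb, ahead of Dst with 155. Next by number were Pde4d, a cAMP phosphodiesterase, Arhgap24, a Rac GTPase-activating protein, and Lpp, a focal adhesion protein (43 each), then Cacna1c, the cardiac L-type calcium channel, Gse1 and the recombination gene Rad51b (42 each), and, with 40 each, Arid1b, a subunit of the BAF chromatin remodeller, and Camta1. The 10 densest genes further included Zmiz1 (150 regions per Mb), Sik3, a salt-inducible kinase (146), Tns1, the focal adhesion protein tensin 1 (138), Med13l, a subunit of the Mediator kinase module (133), Zfp469 (132) and Rbms1 (127). All of the 10 densest genes carried an end peak (within 1 kb of either gene end) in every library.

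The largest genes stood at the other extreme. Of 187 genes with at least 500 kb of eligible interior 39 held no region in any library. Among them were Lrp1b, a lipoprotein receptor relative with 2018 kb of eligible interior, Fhit (1572 kb), a fragile-site gene, Csmd1 (1523 kb), the neuronal splicing factor Rbfox1 (1488 kb), the glypican Gpc5 (1393 kb), the synaptic organisers Il1rapl1 (1335 kb) and Il1rapl2 (1197 kb), Cntn5 (1231 kb), Lingo2 (1215 kb) and Agbl4 (1147 kb). Dmd, the dystrophin gene of muscle and the longest of all with 2390 kb, held 1 region, called only in siControl replicate 1. Ptprd held 2, Lsamp 3, Nrxn3 4 and Cntnap2 5. Exceptions among the 10 longest were Dlg2, a synaptic scaffold with 21 regions, and Macrod2 with 9. In Dlg2 the first region along the transcript lay 894 kb from the start. The longest stretch without a region between 2 regions of a gene was 1021 kb, in Pcdh15, whereas the median gap between neighbours was 10.2 kb and 28.5% of gaps were under 5 kb.

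**Figure D2:**
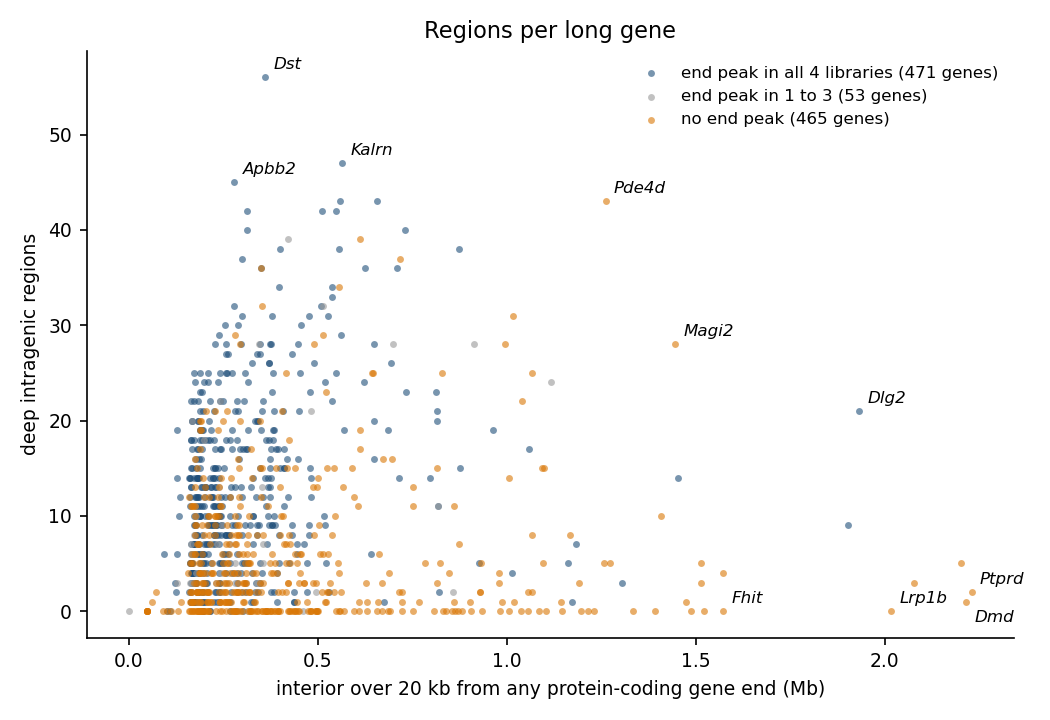
Number of deep intragenic regions per long gene (vertical axis) against the Mb of its interior over 20 kb from any protein-coding gene end (horizontal axis), 1 point per gene, coloured by the number of libraries (all 4, 1 to 3 or none) with a peak no more than 1 kb from either end. Dst, Kalrn and Apbb2 lie at the top left with 45 to 56 regions, and Lrp1b, Fhit, Ptprd and Dmd at the bottom right with 0 to 2.

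**Figure D3:**
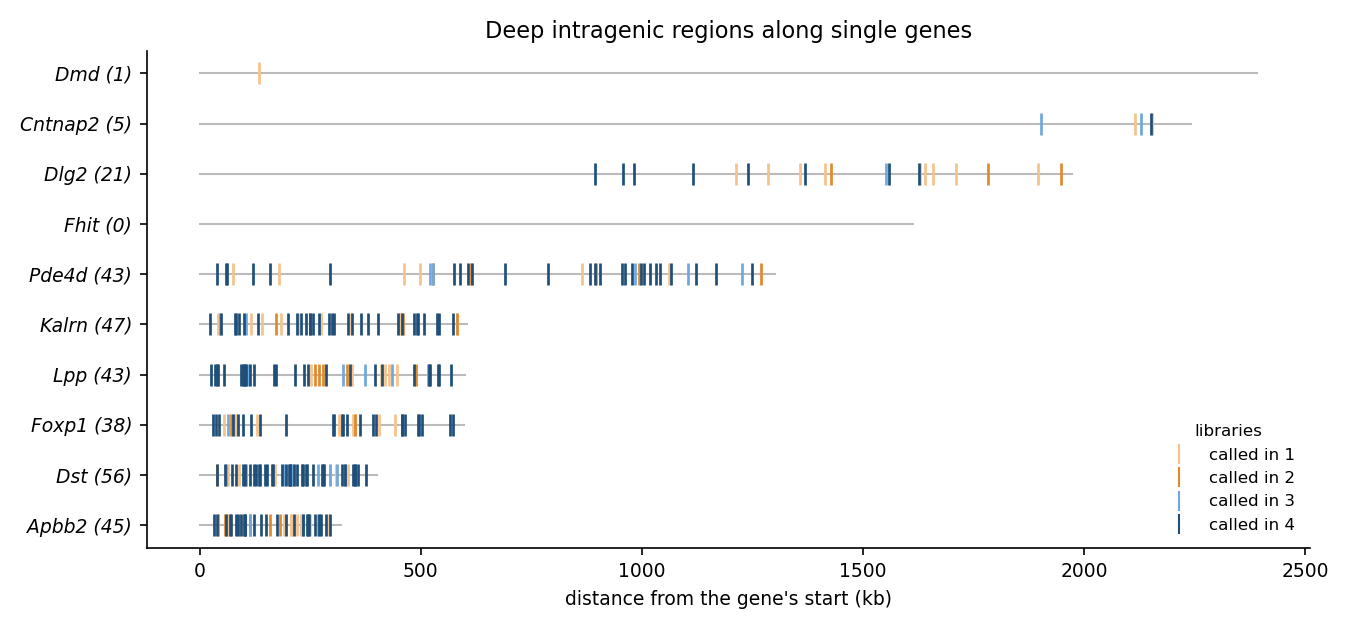
Position of each deep intragenic region along 10 genes in kb from the gene's start, coloured by the number of libraries that called it; the grey line is the gene body and the number of regions stands beside the name. Dst and Apbb2 are filled with regions along their length, whereas Dlg2 holds none before 894 kb and Fhit none at all.

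Long genes with an accessible end had denser interiors. In the 471 genes with an end peak in every library, interiors held 41.6 regions per Mb and 8 genes had none. The 465 genes with no end peak in any library held 12.5 per Mb, and 128 of them had no region. In peaks per Mb the former had 32.5 and 34.3 (siControl) and 34.0 and 29.6 (siChst7), against 9.38, 9.76, 9.85 and 8.22 in the latter. The groups of genes also differ in length, and the same order stood within each length class: 53.3 against 25.4 regions per Mb at 200 to 300 kb, 43.6 against 16.6 at 300 to 500 kb, 34.7 against 10.1 at 500 to 1000 kb, and 7.60 against 4.98 over 1000 kb, the last with 10 genes against 48. Some genes with no end peak at the ends of their annotated gene body still held many regions. Among them were Pde4d (43 regions, 34.1 per Mb), Nav2 (39, 63.8 per Mb), Palld (32, 91.1 per Mb) and Sorbs2 (29, 104 per Mb).

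Gene lists drawn up for these cells fell into 3 levels. Their medians stand beside the median of all long genes, 23.0 regions per Mb, with no test. Their counts without a region stand beside 140 of all 989 long genes. Long genes of the cytoskeleton, focal adhesion and related signalling had a median of 61.3 regions per Mb, with 35 of 46 above the overall median. Dst, Lpp and Arhgap24 had the most regions, and only 2 of the 46 had none. Long transcription factor and cofactor genes had a median of 44.8, with 38 of 45 above the overall median, led by Arid1b (40 regions), Foxp1, a forkhead repressor (38), and, with 28 each, Maml2, a Notch co-activator, and Sox5. Next came lists close to the overall median. Extracellular matrix and matrix remodelling genes had a median of 23.6 with no gene without a region, led by Fndc3b (30), Thsd4 (29) and Ltbp1, which binds latent TGF-beta (28). Kinase, phosphatase and receptor genes had a median of 24.8, led by Ptprm (28), Prkca (26) and Slit3 (25). Cardiac muscle and excitability genes had one of 22.9, led by Pde4d (43), Cacna1c (42) and the sarcomere formin Fhod3 (31). The cardiac genes are longer, with a median of 433 kb against 324 kb for all long genes. Within each class of length they held more regions per Mb than the other genes. These were 50.9 against 42.0 at 200 to 300 kb and 38.3 against 29.6 at 300 to 500 kb. At 500 to 1000 kb they were 27.4 against 18.6, and over 1000 kb 10.4 against 5.12. Fhod3, Sorbs2, Ank2, Ctnna3 and Dmd also stand in the cytoskeleton list.

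Long genes of neuronal adhesion, synapse and guidance held few regions. Their median was 2.21 regions per Mb, 18 of 58 held no region, against 140 of all 989 long genes, and 3 lay above the overall median. Sorcs2, a sorting receptor of neurons, was apart from the others with 37 regions and 124 per Mb, followed by Tenm4 and Magi2 with 28 regions each. Among all long genes, 20.4% of those of 500 to 1000 kb and 27.1% of those over 1000 kb held no region. The neuronal genes are also long, with a median of 1042 kb against 324 kb for all long genes. Within classes of length, the 32 over 1000 kb held 3.75 regions per Mb against 8.27 in the other 27 genes of that length, the 23 of 500 to 1000 kb held 5.70 against 21.4, and the 3 of 300 to 500 kb, Sorcs2 among them, held 37.5 against 29.8. Of these 58 genes 6 had an end peak in all 4 libraries, against 31 of the 45 transcription factor genes and 471 of all 989 long genes. Genes of common fragile sites had a median of 6.51 per Mb, with Wwox (38 regions), Smyd3 (31) and Auts2 (25) at the top and 3 of 16 without a region.

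The chondroitin and heparan sulfate list, the pathway of the siRNA target, was split. Of its 15 long genes 8 held no region, against 140 of all 989 long genes. Ext1, a heparan sulfate polymerase, held 29 regions (122 per Mb), Ust, which sulfates uronic acid in chondroitin and dermatan sulfate, 19 (69.3 per Mb), and Chst11, a chondroitin 4-O-sulfotransferase, 18 (105 per Mb). Csgalnact1, which starts chondroitin chains, held 9, the heparan sulfotransferase Hs6st2 8, and the glypicans Gpc6 and Gpc3 held 4 and 3. Hs3st4, Hs3st5, Hs6st3, Ndst4 (heparan sulfate sulfation), Chst9, Chsy3 and Xylt1 (chondroitin and chain linkage) and Gpc5 held none, although Chsy3 had an end peak in all 4 libraries. Over the list the peaks numbered 66 and 68 in siControl and 72 and 59 in siChst7, so the groups overlapped. Of its 90 regions 3 were siChst7-specific and 1 siControl-specific (called in both libraries of one group and in neither of the other), counts too small to read against the shares over all regions given further on, 1.24% and 2.84%, which themselves depend on list length.

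**Figure D4:**
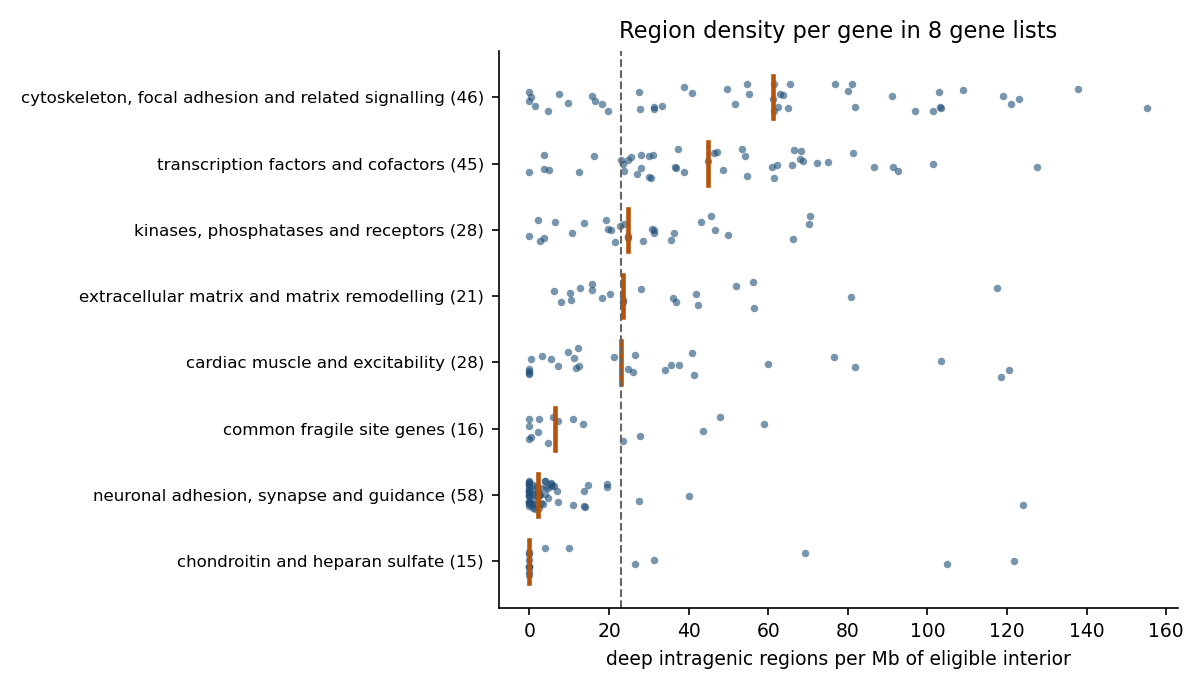
Deep intragenic regions per Mb of eligible interior for each long gene with at least 100 kb of it in 8 lists (number of genes in parentheses); bars mark the list medians and the dashed line the median of all 977 such genes, 23.0. To the right of the line lie 35 of 46 cytoskeleton genes, 38 of 45 transcription factor genes and 3 of 58 neuronal genes, among them Sorcs2 at 124.

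Deep intragenic peaks were spread nearly evenly between the start and the far end of the gene. For genes whose strand the start table gives (744 of 989), the part of the gene body nearer the start held 48.8% and 49.4% of deep intragenic peaks in siControl and 49.0% and 49.4% in siChst7, against 50.1% of the eligible bases (mean difference -0.96 percentage points, exact sign-flip permutation p = 0.125, the smallest possible; -0.26 with genes of at least 100 kb and -2.02 with those of at least 500 kb). With the gene body cut into 10 equal stretches, the density ran from 20.4 regions per Mb in the first to 28 in the ninth. By distance from the nearest gene end the density was 33.0 regions per Mb at 20 to 50 kb and at 50 to 100 kb, 24.8 at 100 to 200 kb and 10.4 beyond 200 kb, a class to which only genes over 400 kb can contribute. Over the same 4 classes of distance 57.3%, 58.9%, 56.8% and 53.6% of the regions were called in all 4 libraries. Just outside the limit of 20 kb, 388 regions at 15 to 20 kb had a median width of 493 bp, against 469 bp for the 366 at 20 to 25 kb. Autosomes ranged from 18.9 (chromosome 4) to 35.1 regions per Mb (chromosome 11), with 7.99 on the X chromosome.

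Lowest folds of at least 20 over the 4 libraries were seen at 29 of the 5279 members called in all 4 (0.55%). The same share over all regions was not counted, so it is not known whether this is few for such regions. The 6 highest lay in Chl1 (47.9 to 49.6, 243 bp wide), Cntnap5b (44.9 to 47.4, 334 bp), Gphn (44.7 to 46.9, 306 bp), Camk1d (44.3 to 47.6, 343 bp), Kctd16 (35.4 to 37.6, 288 bp) and the overlap of Cmss1 and Filip1l (34.8 to 36.4, 559 bp). Of these 6, all but the last were narrower than the median member (491 bp), and their widths differed by at most 10 bp between libraries (the Gphn peak was 306 bp wide in all 4), whereas the 29 regions had a median width of 570 bp. Their −log10 q reached 2409 to 3117 at the Cmss1 and Filip1l region and 2684 to 2986 at Chl1, against a 95th percentile of 95.6 to 120 among deep intragenic peaks. Whether an exclusion list of regions with anomalous signal was applied is not given in the sources used here. The widest members were of another kind, with folds of 4 to 11. Dlgap1 held a region of 2292 bp (folds 7.94, 8.52, 8.08 and 7.82), Runx1 one of 2284 bp over an inner start of this blood and mesenchymal transcription factor (8.73, 8.98, 8.51 and 9.61), and Asap1, Lrmda, Cdk14 and Atg7 ones of 2177, 2109, 2101 and 2073 bp.

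No difference between siControl and siChst7 in how much of the peak list was deep intragenic exceeded the spread between libraries. These peaks made up 9.63% and 9.89% of the siControl lists and 10.0% and 9.70% of the siChst7 lists, that is 9.76% ± 0.19 (SD, n = 2) and 9.87% ± 0.24 (SD, n = 2). The difference of 0.11 percentage points was smaller than the spread within each group (two-sided exact permutation p = 0.667, where 2 against 2 libraries allow no p under 0.333). The median width differed by 8.50 bp, with overlapping groups (exact permutation p = 0.667), and the density was 19.5 ± 0.71 and 18.6 ± 1.98 peaks per Mb (SD, n = 2 each).

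Single regions called in one group only were few, and their balance depended on the length of the lists. A region found by both siChst7 lists and absent from both siControl lists (siChst7-specific) was seen 145 times among the 9210 (1.57%), against 1.24% of all regions, and the reverse (siControl-specific) 274 times (2.98%), against 2.84%. So 34.6% of group-specific members (exact 95% binomial interval 30.1 to 39.4) were siChst7-specific, against 30.5% over all regions. When each list was held to its 66079 strongest peaks, the length of the shortest, the counts became 199 and 177 of 7965 (52.9% siChst7-specific, 47.7 to 58.1), beside 1.96% and 2.05% of all regions at that length, and the surplus of siControl-specific regions was gone. Both kinds had the size of members called in 2 libraries, which each of them is by definition. Their median widths were 351 and 330 bp and their median highest folds 5.30 and 5.68. All members called in 2 libraries had 336 bp and 5.49, and those called in all 4 had 661 bp and 10.5. At −log10 q of at least 5, at widths of at least 200 bp and at equal list length alike, 60 of the 145 siChst7-specific regions (41.4%) and 113 of the 274 siControl-specific ones (41.2%) kept their call; these numbers start from the lists as deposited and carry their surplus.

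Of the siChst7-specific regions the one with the highest lower −log10 q lay in Adk, adenosine kinase, 84.3 kb from a gene end (chr14:21136836-21137167), with folds of 11.2 and 10.6 and −log10 q of 35.2 and 24.0. The next lay in Dnm3 (chr1:162215799-162216050, folds 4.51 and 4.08, −log10 q 31.6 and 19.7), beside the Dnm3os and Mir199a-2 region described above. Further ones lay in Prkg1, a cGMP-dependent kinase of smooth muscle (folds 8.59 and 8.86), Slc35f3 (7.19 and 9.19), Gmds, an enzyme of GDP-fucose synthesis (6.83 and 5.80), Camta1 (5.00 and 5.30), Plcb4 (3.39 and 3.30) and Cacnb4 (6.61 and 7.25). All 8 kept their call under the 3 filters. The siControl-specific regions chosen in the same way lay in Celf2 (chr2:7076207-7076392, folds 18.7 and 21.7, −log10 q 81.0 and 95.1, 186 bp wide), Atp8a2 (chr14:60016015-60016355, folds 17.7 and 16.3, −log10 q 57.5 and 48.5), Iqgap2 (13.7 and 13.8), Tnr (13.4 and 13.5), Pcdh7 (10.6 and 12), Fmn1 (10.9 and 9.41), Nav2 (10.9 and 8.64) and Slco3a1 (12.5 and 9.89). Of these 8, the regions in Celf2, Pcdh7 and Fmn1 lost the call when peaks under 200 bp were left out. No peak in the other group does not mean closed chromatin, only that none reached the caller's threshold there.

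Counted per gene, the siRNA groups separated in a minority of long genes, and which way depended on list length. Of the 849 genes with a region, 37 (4.36%) had more peaks in both siChst7 libraries than in either siControl library, beside 2.76% of all 11663 protein-coding genes with a peak inside, and 103 (12.1%) had fewer, beside 8.05%. At equal list length 86 of 831 genes (10.3%) had more, beside 5.04%, and 57 (6.86%) fewer, beside 4.74%, so the direction of the balance turned. Genes with few peaks can seldom separate, and these shares were not matched for the number of peaks per gene. The calls present both ways were 21 with more and 30 with fewer.

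Pde4d had 34 and 35 peaks in siControl and 40 and 36 in siChst7 as deposited, and 31 and 31 against 37 and 36 at equal length. Pard3b, a cell polarity gene, had 13 and 12 against 16 and 16, and 11 and 10 against 13 and 16 at equal length. Ptprk, a receptor phosphatase, had 7 and 5 against 9 and 9, and Ppm1h 15 and 14 against 18 and 17, and both kept separate groups at equal length. These 4 genes had more peaks with siChst7 on either count, whereas Immp2l (3 and 5 against 9 and 7) did not separate at equal length. In the other direction Foxp1 had 31 and 33 in siControl against 29 and 26 in siChst7, and 28 and 29 against 26 and 26 at equal length. Atp8a2, a phospholipid flippase, had 6 and 9 against 4 and 3, and 5 and 4 against 3 and 3. Sorcs2 had the largest difference as deposited, 31 and 33 against 25 and 25, but 25 and 27 against 21 and 25 at equal length, where the groups touched. Ttc28 (23 and 25 against 19 and 19) and Runx2, the osteoblast transcription factor (20 and 22 against 19 and 15), also lost their separation. The genes were ranked by this difference, so it is given as a description.

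**Figure D5:**
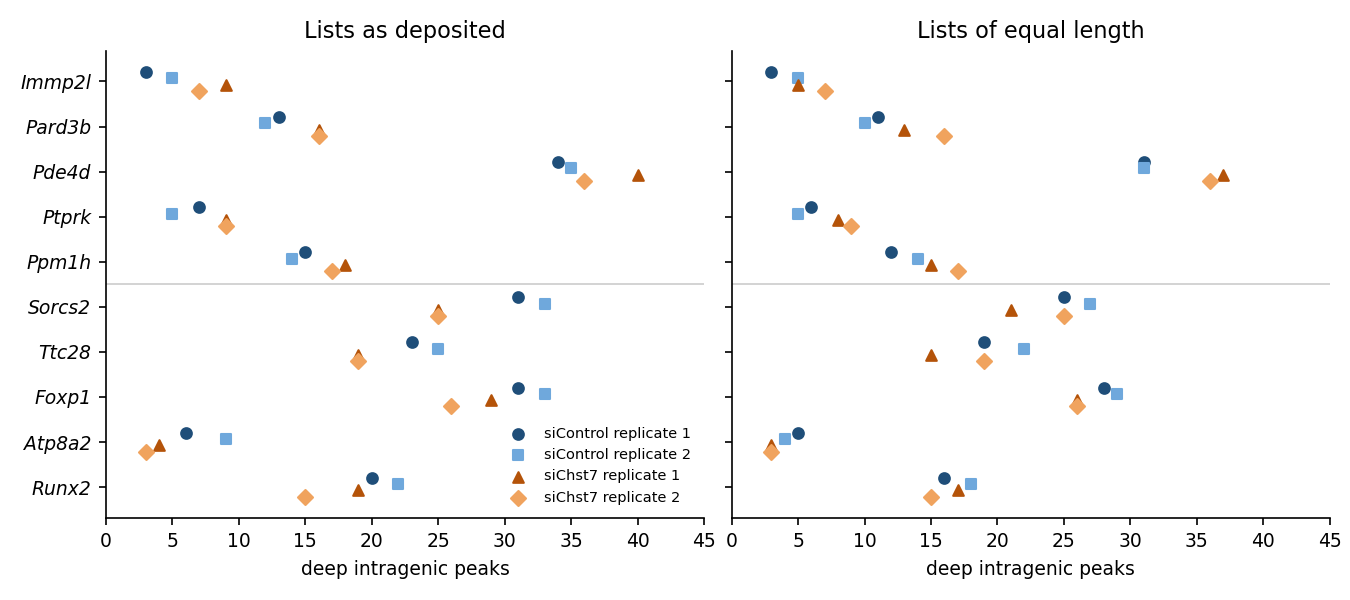
Number of deep intragenic peaks per library in the 5 genes with the largest surplus in siChst7 (above the line) and the 5 with the largest deficit (below), in the lists as deposited (left) and with each list held to its 66079 strongest peaks (right). Pard3b, Pde4d, Ptprk, Ppm1h, Foxp1 and Atp8a2 keep separate groups on the right, and Immp2l, Sorcs2, Ttc28 and Runx2 do not.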

How the data were processed

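Accessible regions were measured by ATAC-seq in 4 libraries (2 siControl, 2 siChst7). The authors deposited 1 peak list per library, called per library and not pooled; Bowtie, SAMtools, MACS3, bedtools, HOMER and mm10 are named in the submitters' processing notes, without versions or roles. For read totals, duplicate removal, the Tn5 shift and exclusion of anomalous regions nothing is stated: not given in the sources used here. The deposited score is a rounded multiple of −log10 q. The deposited fold enrichment is a ratio of summit signal to local background within 1 library, and the deposited −log10 p and −log10 q are those of the summit; all were used only to describe or rank peaks within a list. The lowest −log10 q lay between 2.00 and 2.02. Peaks off chromosomes 1 to 19 and X were left out.

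Peaks sharing at least 1 bp were merged, and regions were placed by 21627 protein-coding genes of RefSeq for GRCm38.p6. Eligible sequence was the gene interior over 20 kb from any gene end; density was regions or peaks per Mb of it. A region in 2 overlapping long genes (39 of 9210) was counted once for the class and for each gene. Library values were compared with two-sided exact permutation tests (2 against 2) or exact sign-flip tests of within-library differences, checked on simulated data; single regions and genes got no test. The members, gene lists and tests were chosen with earlier results of these data known. Named genes were the 10 with the most regions, the 10 densest (at least 100 kb eligible), the 10 longest, the 10 sparsest (at least 500 kb eligible), the top 3 of each list, all of the chondroitin and heparan sulfate list and 5 each way by difference in peaks; named regions were the 6 of highest fold, the 6 widest and 8 specific to each group. Covered lncRNA starts and hairpins were too many to name in full. The alternatives were stricter −log10 q (5, 10), equal list length, widths of at least 200 bp, 200 bp summit windows, other distances and gene lengths, each library left out, and the replicate number as a block. Sequences are RefSeq's for GRCm38.p6; the sequences of the regions themselves were not used here. Python 3.11.15 with pandas 2.3.3, numpy 2.4.6 and scipy 1.17.1 was used.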

Additional observations from a re-analysis of the deposited data

How the results depend on the processing

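Of 107 alternative values 93 kept the direction or stayed near the reported value. The difference in the deep intragenic share between siRNAs, 0.11 percentage points, was 0.046 to 0.277 under 12 alternatives and turned to -0.026 without siControl replicate 1 and -0.061 without siChst7 replicate 1 (range leaving out 1 library -0.061 to 0.277); the width difference of 8.50 bp turned to -12 bp at equal list length and -0.50 bp without siChst7 replicate 1 (range -0.50 to 17.5). The log2 density ratio to intergenic sequence turned to -0.30 for genes of at least 500 kb and was 0.46 to 0.99 elsewhere. The percent called in all 4 libraries moved to 60.9 and 63.9 at −log10 q of at least 5 and 10, 61.6 at equal list length and 50.6 with summit windows. The siChst7-specific share moved to 52.9% at equal list length, where, chosen after seeing the data, 86 and 57 long genes had more and fewer peaks in siChst7. The rule gave 15565 regions at a gene length of at least 100 kb and 2347 at 500 kb. With summit windows no width difference exists. Against other peaks, width, rank, fold and position kept their sign in all of these, but the fold difference of -0.12 ran from -0.30 (genes of at least 100 kb) to -0.03 (−log10 q of at least 10), the width difference reached -49.6 bp for genes of at least 500 kb, and the position difference of -0.96 percentage points ran from -2.02 (at least 500 kb) to -0.26 (at least 100 kb). With the replicate number as a block the share difference was 0.11 (exact sign-flip p = 1.00) and the width difference 8.50 bp (exact sign-flip p = 0.50). Calls of the same number did not deviate together (Pearson's r = -0.03 over 9210 regions). This r rests on thresholded calls of regions that are not independent, so it cannot decide whether same-numbered libraries are paired. The labels do not say, and the main tests treat the libraries as unpaired. Read totals are not in these files, so the part of depth in the list lengths was not tested.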
